A study of Mus musculus with 24 samples.

Results

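Transcripts of 10 macrophage genes were followed through the gastrocnemius, a muscle of the calf, of female C57BL/6J mice. The genes were given as a list of symbols, and all 10 were found among the 55385 genes counted in every library. They fall into 3 classes by their usual use as markers: 4 pan-macrophage genes (Cd68, Adgre1, Csf1r and Lyz2), 3 genes of tissue-resident macrophages (Cd163, Mrc1 and Lyve1) and 3 genes of activated, lipid-handling macrophages (Trem2, Gpnmb and Spp1). All 10 passed the filter on low counts, among 17803 genes tested.

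The data were 24 libraries, 1 per mouse, in 6 groups of 4. Young GFP (3 to 6 months of age), old GFP (21 to 24 months) and oldest-old GFP (27 to 29 months) mice had received an adeno-associated virus of serotype 8 that carries green fluorescent protein, the control for a vector that carries mouse Klotho, a circulating protein of ageing. The Klotho vector had been given to the old AAV-Kl and the oldest-old AAV-Kl mice. A young Sham group is labelled as such, and what its handling was is not given in the sources used here. The 2 vectors share a promoter made for liver, so that muscle is not their intended site of expression. The stated dose in uninjured mice was 3e8 vector genomes through the tail vein, with euthanasia after 14 days, and mice entered the AAV study only if they fell within the 25th to 75th percentile of a hang test. The main comparisons across age were made among mice that carried the GFP vector. The shallowest library had 36415886 reads assigned to genes and the deepest 59733985.

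Macrophages of skeletal muscle lie between the fibers, clear debris and take part in repair after injury. Their survival depends on signaling through Csf1r, the receptor for the growth factors encoded by Csf1 and Il34. Resident macrophages carry scavenger and uptake receptors such as Cd163 (hemoglobin-haptoglobin complexes), Mrc1 (mannose-bearing glycoproteins) and Lyve1 (hyaluronan), whereas macrophages that take up lipid and dying cells raise the lipid receptor Trem2, the lysosome-associated glycoprotein Gpnmb and the secreted glycoprotein osteopontin (Spp1). Several of these genes are not exclusive to macrophages: Lyve1 marks lymphatic endothelium, Spp1 is made in bone, and Gpnmb is made in melanocytes and osteoclasts.

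The promoter windows of the 3 activated genes are shown because these were the members that changed with age, with those of Cd163 and Cd68 beside them as a resident and a pan-macrophage gene. Each is the 250 bases before the start of the gene in RefSeq (build GRCm38.p6), written 5′ to 3′ on the strand of the gene. Capitals mark matches, on either strand, to GAGGAA (a box bound by PU.1, a factor that macrophages need) and TGANTCA (the AP-1 site). CACGTG and CATGTG, sites of the MITF and TFE family, were searched as well and have no match in these 5 windows.
Trem2, chr17:48346151-48346400, plus strand: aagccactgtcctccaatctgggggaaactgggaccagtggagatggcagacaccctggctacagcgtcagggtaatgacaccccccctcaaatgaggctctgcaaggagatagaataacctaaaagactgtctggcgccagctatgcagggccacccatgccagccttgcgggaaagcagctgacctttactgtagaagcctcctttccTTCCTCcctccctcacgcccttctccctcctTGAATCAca
Gpnmb, chr6:49036268-49036517, plus strand: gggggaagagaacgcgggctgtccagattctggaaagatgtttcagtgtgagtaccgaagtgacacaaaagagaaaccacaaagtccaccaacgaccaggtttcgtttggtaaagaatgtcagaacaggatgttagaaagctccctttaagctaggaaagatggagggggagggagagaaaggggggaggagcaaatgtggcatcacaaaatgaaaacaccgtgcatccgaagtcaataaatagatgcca
Spp1, chr5:104434861-104435110, plus strand: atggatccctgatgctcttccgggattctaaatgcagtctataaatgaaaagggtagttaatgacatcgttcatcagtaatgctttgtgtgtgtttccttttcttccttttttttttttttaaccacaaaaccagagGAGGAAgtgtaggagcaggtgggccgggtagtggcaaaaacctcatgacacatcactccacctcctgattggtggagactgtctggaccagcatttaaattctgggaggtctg
Cd163, chr6:124304401-124304650, plus strand: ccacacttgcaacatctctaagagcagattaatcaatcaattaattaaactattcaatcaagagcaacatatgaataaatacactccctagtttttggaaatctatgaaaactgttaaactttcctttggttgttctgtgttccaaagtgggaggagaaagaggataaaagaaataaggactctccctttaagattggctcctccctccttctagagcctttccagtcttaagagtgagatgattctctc
Cd68, chr11:69666171-69666420, minus strand: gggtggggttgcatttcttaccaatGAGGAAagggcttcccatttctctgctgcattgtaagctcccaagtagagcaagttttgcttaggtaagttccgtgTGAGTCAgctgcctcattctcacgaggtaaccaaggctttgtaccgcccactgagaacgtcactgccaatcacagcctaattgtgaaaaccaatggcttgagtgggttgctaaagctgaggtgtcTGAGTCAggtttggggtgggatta

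The table of promoters matched 7 of the 10 members, with 8 windows because Spp1 has a pair of starts. Of all 32851 windows of this length, 23.3% hold GAGGAA, 6.75% hold TGANTCA, 6.02% hold CACGTG and 12.3% hold CATGTG. Trem2 has 1 match to each of the first pair, Spp1 has 1 GAGGAA at its first start, Cd68 has 1 GAGGAA and 2 TGANTCA, and Gpnmb and Cd163 have none of the 4. Outside the printed windows, Mrc1 has 3 GAGGAA and 2 CATGTG and Lyz2 has none. No motif is shared by the 3 activated members in these windows, which says only that these letters are not there.

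Trem2 and Gpnmb transcripts rose by old age, and Trem2, Gpnmb and Spp1 had risen by oldest-old age, each time against young GFP muscle. In edgeR's fit of all libraries no pan-macrophage and no resident member passed the test in either comparison, although all 10 members had a positive log2 fold change in both. More cells and more RNA per cell cannot be told apart in whole muscle. Levels are given as CPM, the count of a gene scaled to the TMM-normalized size of its library, and a gene was called at an adjusted p under 0.05 in edgeR's quasi-likelihood test over all genes tested. By this rule 2 of 10 members were called higher in old GFP than in young GFP muscle, where 3.21% of all genes tested were, and 3 of 10 in oldest-old GFP muscle, where 8.8% of all genes were. The median log2 fold change of the members was 0.82 at old age and 0.83 at oldest-old age, beside medians of 0.0021 and 0.027 over all genes.

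**Figure D1:**
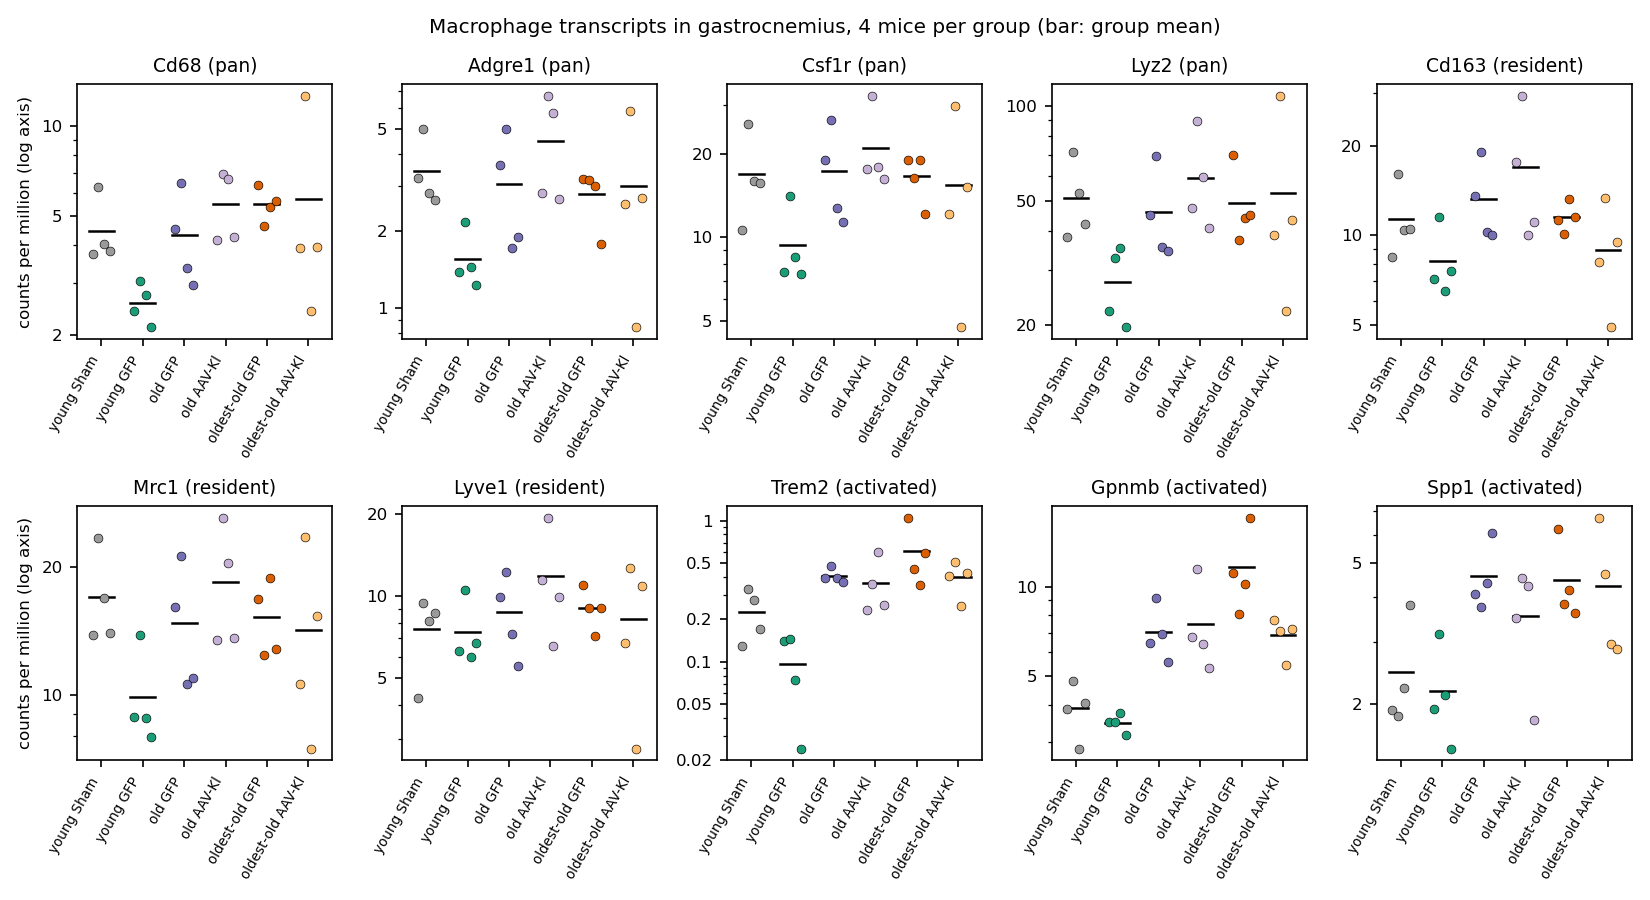
CPM (log axis) of each of the 10 members in the 6 groups, with 1 point per mouse and a bar at the mean of 4. In Gpnmb every old GFP and oldest-old GFP mouse lies above every young GFP and young Sham mouse, whereas in Lyz2 the young Sham mice overlap the old groups.

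Trem2, the lipid receptor (chr17:48346401-48354147, plus strand, GRCm38 with GENCODE M21, as for the other genes), was the scarcest member. In young GFP muscle it measured 0.14, 0.145, 0.0746 and 0.0242 CPM, from 1 to 6 reads per library and 17 reads in all. In old GFP muscle it measured 0.395, 0.481, 0.395 and 0.366 CPM, and in oldest-old GFP muscle 1.05, 0.458, 0.349 and 0.592 CPM, from 133 reads in all. Neither older group overlapped the young GFP group. The log2 fold change was 2.07 ± 0.45 (SE) in old against young GFP muscle (edgeR adjusted p = 0.0114) and 2.66 ± 0.45 in oldest-old against young GFP muscle (edgeR adjusted p = 0.000677). Leaving out any single mouse left both calls in place, and at oldest-old age Trem2 was called under all 18 other settings run, with log2 fold changes from 1.43 to 3.12.

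Gpnmb, the lysosome-associated glycoprotein (chr6:49036546-49070929, plus strand), was more abundant than Trem2, and more even within the young GFP and oldest-old GFP groups. Young GFP mice had 3.51, 3.5, 3.75 and 3.16 CPM, old GFP mice 6.48, 9.14, 6.94 and 5.59 CPM, and oldest-old GFP mice 11.1, 8.08, 10.2 and 17.1 CPM. All 8 older mice lay above all 4 young GFP mice, and the old and oldest-old GFP groups overlapped. The log2 fold change was 1.02 ± 0.23 (SE) at old age (edgeR adjusted p = 0.0159) and 1.74 ± 0.24 at oldest-old age (edgeR adjusted p = 0.000119). The call at old age was lost without old GFP mouse 2 or young GFP mouse 4 (edgeR adjusted p = 0.0597 and 0.0574), and that at oldest-old age was kept under all 18 other settings run. From old to oldest-old GFP muscle it was 0.72 ± 0.23, which was not called (edgeR adjusted p = 0.262).

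Spp1, which encodes osteopontin (chr5:104435118-104441050, plus strand), measured 1.94, 3.16, 2.13 and 1.5 CPM in young GFP muscle. It measured 4.09, 3.76, 4.4 and 6.09 CPM in old GFP muscle and 6.24, 3.84, 4.21 and 3.61 CPM in oldest-old GFP muscle, again above every young GFP mouse. The log2 fold change of 1.04 ± 0.32 (SE) at oldest-old age was called (edgeR adjusted p = 0.0349), whereas that of 1.07 ± 0.32 at old age was not (edgeR adjusted p = 0.0608). DESeq2 and edgeR's fit of the compared groups alone called it at old age too (adjusted p = 0.0235 and 0.0275). The call at oldest-old age was lost under 10 of 18 other settings, among them the fits without oldest-old GFP mouse 1 or 3 and without young GFP mouse 1, 3 or 4, in which the adjusted p was between 0.0525 and 0.119. In the annotation used here, 18.75% of the exonic bases of Spp1 are shared with Gm42793, a gene on the same strand, from which reads cannot be told apart there.

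The pan-macrophage members had higher group means in older GFP than in young GFP muscle, and none was called in edgeR's fit of all libraries. Cd68, a lysosomal glycoprotein (chr11:69664213-69666153, minus strand), had the largest log2 fold change of the 4 at oldest-old age, 1.09 ± 0.37 (SE), just short of the threshold (edgeR adjusted p = 0.0505). DESeq2 called it (adjusted p = 0.0254), as did edgeR's fit of the compared groups alone (adjusted p = 0.00518). It measured 2.41, 3.04, 2.72 and 2.13 CPM in young GFP muscle, 4.52, 6.47, 3.36 and 2.95 in old GFP muscle and 6.35, 4.63, 5.39 and 5.62 in oldest-old GFP muscle. The oldest-old mice lay above all young GFP mice, and the old mice did not. Adgre1, which encodes the surface antigen F4/80, had log2 fold changes of 0.98 ± 0.45 at old age and 0.83 ± 0.45 at oldest-old age (edgeR adjusted p = 0.237 and 0.224). Csf1r, the growth factor receptor, had 0.90 ± 0.40 and 0.82 ± 0.40 (edgeR adjusted p = 0.225 and 0.176), and 15.12% of its exonic bases overlap Hmgxb3 on the opposite strand. Lyz2, lysozyme of myeloid cells, had 0.75 ± 0.37 and 0.84 ± 0.38 (edgeR adjusted p = 0.287 and 0.139).

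The resident members had the 3 smallest log2 fold changes of the 10 at both ages. Mrc1, the mannose receptor, ranged from 7.95 to 13.9 CPM in young GFP, 10.6 to 21.3 in old GFP and 12.4 to 18.8 in oldest-old GFP muscle, with log2 fold changes of 0.58 ± 0.31 (SE) at old age and 0.63 ± 0.31 at oldest-old age (edgeR adjusted p = 0.322 and 0.185). Cd163, the hemoglobin scavenger receptor (chr6:124304656-124330527, plus strand), ranged from 6.51 to 11.5 CPM in young GFP, 10.03 to 19.03 in old GFP and 10.1 to 13.2 in oldest-old GFP muscle, and its log2 fold changes were 0.69 ± 0.32 at old age, with an unadjusted p of 0.042 in edgeR's fit, and 0.50 ± 0.32 at oldest-old age (edgeR adjusted p = 0.239 and 0.317). Lyve1, the hyaluronan receptor, had the smallest difference of the 10, 0.25 ± 0.38 at old age and 0.29 ± 0.38 at oldest-old age (edgeR adjusted p = 0.781 and 0.65). Its ranges of 5.98 to 10.6, 5.56 to 12.2 and 7.18 to 10.9 CPM overlapped in all 3 ages.

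**Figure D2:**
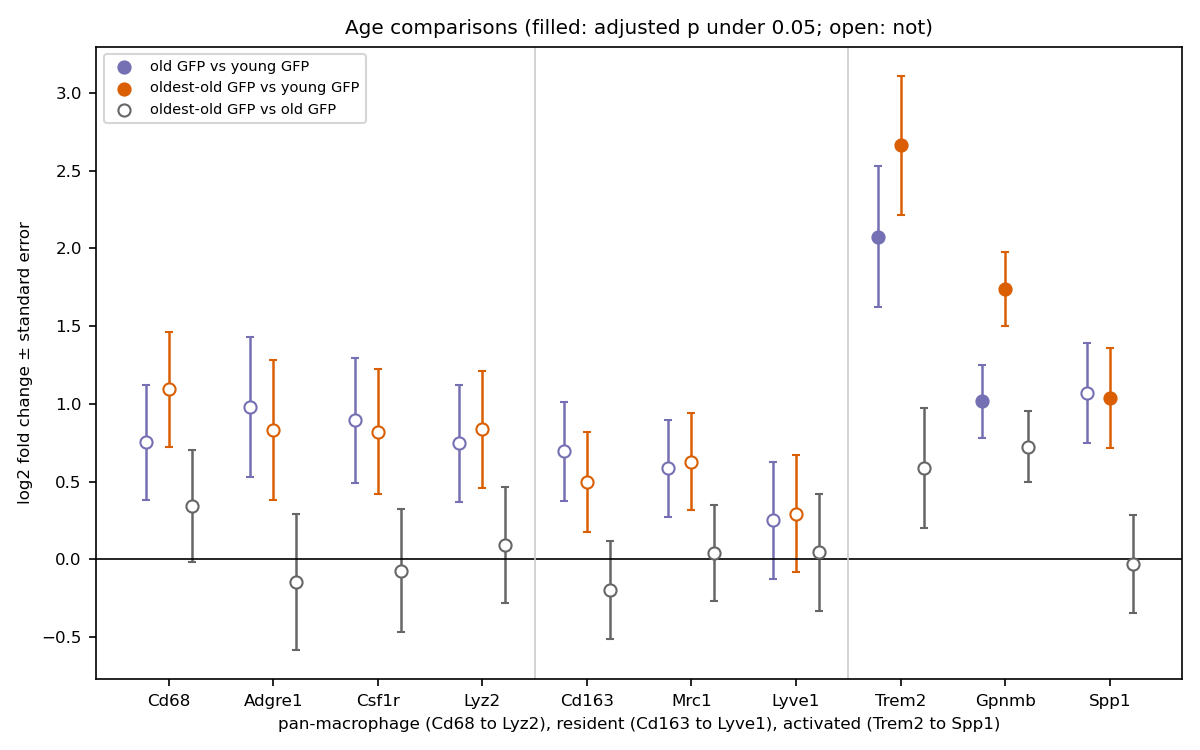
Log2 fold change with its standard error for the 10 members in the 3 age comparisons among GFP mice; filled points passed an adjusted p of 0.05. The 5 filled points are Trem2 and Gpnmb at both ages and Spp1 at oldest-old age, and no point of the comparison of oldest-old with old muscle is filled.

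Between old and oldest-old GFP muscle no member was called, and 1 gene in all was (0.00562% of those tested), with 2136 genes at an unadjusted p under 0.05. DESeq2 called 128 genes there and no member. Only Gpnmb among the members had an unadjusted p under 0.05. The median log2 fold change of the members was 0.043, and 6 of 10 were positive. Counted by overlap instead, 3 members (Trem2, Gpnmb and Spp1) had all old GFP mice above all young GFP mice, as 8.69% of genes did, and 5 (these and Cd68 and Lyz2) had all oldest-old GFP mice above them, as 10.4% of genes did.

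Set against each other within each library, the activated members rose relative to the resident members with age among GFP mice. The difference between the mean log2 CPM of Trem2, Gpnmb and Spp1 and that of Cd163, Mrc1 and Lyve1 was -3.07 ± 0.32 (SD, n = 4) in young GFP, -2.25 ± 0.42 in old GFP and -1.90 ± 0.31 in oldest-old GFP muscle. Every young GFP mouse, from -3.45 to -2.77, lay below every old GFP mouse, from -2.70 to -1.82, and below every oldest-old GFP mouse, from -2.25 to -1.59. The old and oldest-old ranges overlapped. This score is a description over members and was given no test. Trem2 had 1 to 6 reads per young GFP library, so that its log2 CPM there leans on the prior count of 2. The score was not computed without Trem2, and how far the separation of the mice rests on that gene was not tested. In the young Sham group the score was -3.05 ± 0.24, within the spread of young GFP. In old AAV-Kl muscle it was -2.79 ± 0.48. Old AAV-Kl mice 1, 2 and 4 (-2.90, -3.16 and -3.01) lay within the young GFP range and below every old GFP mouse. Old AAV-Kl mouse 3 (-2.09) lay within the old GFP range. The resident mean was 3.86 in old AAV-Kl, 3.53 in old GFP and 3.04 in young GFP muscle. The activated mean was 1.07, 1.27 and -0.03 in the same groups, so that the activated level of old AAV-Kl muscle was not that of young GFP muscle. In oldest-old AAV-Kl muscle the difference was -2.02 ± 0.58, from -2.59 to -1.48.

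**Figure D3:**
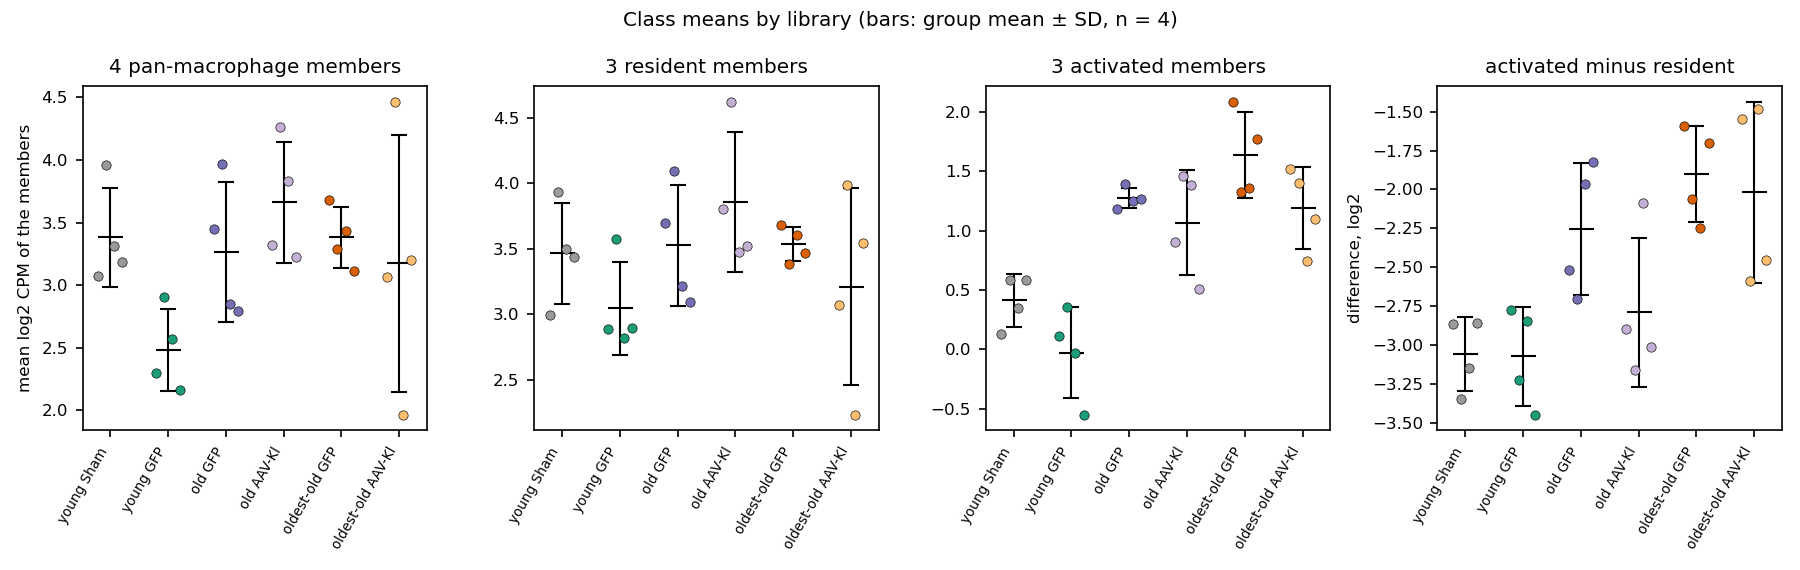
Mean log2 CPM of the members of each class and the activated minus resident difference in each library, with the group mean and SD (n = 4). The young Sham and young GFP groups coincide in the difference, at -3.05 and -3.07, while their pan-macrophage means are 3.38 and 2.48.

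No member passed the test between the 2 young groups. All 10 members had a negative log2 fold change in young GFP against young Sham muscle, and 6 (Adgre1, Trem2, Lyz2, Csf1r, Cd68 and Mrc1) had an unadjusted p under 0.05. In this comparison 2389 of all 17803 genes tested had an unadjusted p under 0.05, and 84 genes, 0.472%, were called. Adgre1 measured 3.22, 5.0, 2.8 and 2.64 CPM in young Sham muscle and 1.38, 2.17, 1.45 and 1.23 CPM in young GFP muscle. All 4 Sham mice lay above all 4 GFP mice, and the log2 fold change was -1.13 ± 0.45 (SE, edgeR adjusted p = 0.284). Cd68 and Lyz2 also did not overlap, so that 3 members were lower in every young GFP mouse, beside 5.19% of all genes. Gpnmb (-0.16 ± 0.24), Spp1 (-0.18 ± 0.32) and Lyve1 (-0.05 ± 0.38) lay closest to 0.

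With young Sham in place of young GFP as the young group, the 4 pan-macrophage members, Cd163 and Mrc1 had smaller or negative log2 fold changes with age. Lyve1 changed little, with 0.20 at old and 0.25 at oldest-old age. Against young Sham muscle, the median log2 fold change of the 10 members was 0.12 at old age and 0.14 at oldest-old age. Adgre1, Lyz2 and Mrc1 turned negative at both ages (between -0.06 and -0.3), Cd68 at old age and Csf1r at oldest-old age. Gpnmb stayed called, with 0.85 at old age (edgeR adjusted p = 0.044) and 1.58 at oldest-old age (edgeR adjusted p = 0.000312). Trem2 was called at oldest-old age (1.43, edgeR adjusted p = 0.0257) and not at old age (0.84, edgeR adjusted p = 0.245), and Spp1 was called at neither (0.89 and 0.86, edgeR adjusted p = 0.117 and 0.0803). This comparison was added after the data were seen, and its groups differ in labelled treatment as well as in age.

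Transcripts of B cells varied widely within both young groups, and none of the 7 B cell genes tested was called between them. The 7 B cell genes summed to 1.91 to 55.2 CPM in young Sham muscle and to 0.289 to 61.4 CPM in young GFP muscle, above 10 CPM in Sham mice 2, 3 and 4, in young GFP mouse 3, in old AAV-Kl mouse 3 and in oldest-old AAV-Kl mouse 2. Sham mouse 1, at 1.91 CPM, lay above every young GFP mouse in Cd68, Adgre1, Lyz2 and Gpnmb and below every one in Lyve1. In Csf1r, Cd163, Mrc1, Trem2 and Spp1 it lay within the young GFP range. Without those 6 libraries the median of the members in young GFP against young Sham muscle was -0.24 in place of -0.79, and the Sham group was then 1 mouse. At oldest-old against young GFP, Cd68, Trem2 and Gpnmb were called without them (edgeR adjusted p = 0.023, 0.00691 and 0.00263) and Spp1 was not (0.0964). At old against young GFP none was called without them, with log2 fold changes of 1.95 for Trem2 and 1.04 for Gpnmb (edgeR adjusted p = 0.0522 and 0.067). The part of B cell content in the difference between the young groups was otherwise not tested.

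**Figure D4:**
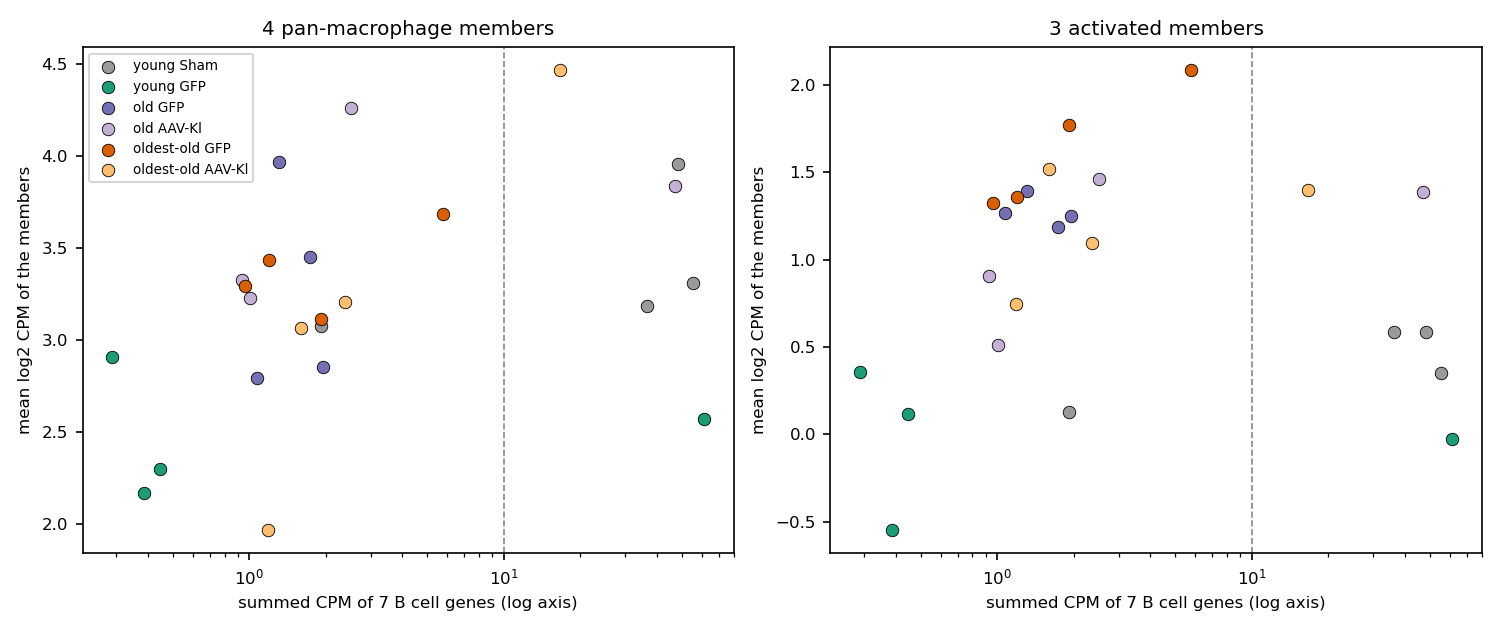
Mean log2 CPM of the 4 pan-macrophage members (left) and of the 3 activated members (right) against the summed CPM of 7 B cell genes (log axis) in the 24 libraries; the dashed line is at 10 CPM. Of the 6 libraries right of the line, 3 are young Sham, and the young groups lie lowest in the activated panel on both sides of the line.

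Klotho did not bring any member past the threshold at either age. In old mice, 8 of 10 members had a positive log2 fold change in AAV-Kl against GFP muscle, with a median of 0.33, and no gene at all was called (0%; 383 genes had an unadjusted p under 0.05, and DESeq2 called 0). Standard errors of these differences were between 0.23 for Gpnmb and 0.44 for Adgre1. In oldest-old mice the median was -0.10, 3 of 10 were positive, and 2 genes (0.0112%) were called, none of them a member. DESeq2 called 26 genes there and no member.

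Gpnmb had the lowest p of the members in oldest-old mice. Oldest-old AAV-Kl mice had 7.73, 7.09, 5.42 and 7.18 CPM, each below all 4 oldest-old GFP mice (8.08 to 17.1 CPM), as was so for 1.35% of genes. The log2 fold change was -0.76 ± 0.23 (SE), with an unadjusted p of 0.0031 in edgeR's fit and an adjusted p of 0.42, and was not called. In old mice the Gpnmb ranges overlapped, at 5.31 to 11.5 CPM with AAV-Kl and 5.59 to 9.14 CPM with GFP, and the log2 fold change was 0.09 ± 0.23. The difference between the 2 responses was -0.85 ± 0.32 and was not called either (edgeR adjusted p = 0.831), in a test of the difference that called 1 gene (0.00562%) and no member. Trem2 had -0.63 ± 0.39 and Spp1 -0.06 ± 0.31 in oldest-old mice.

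**Figure D5:**
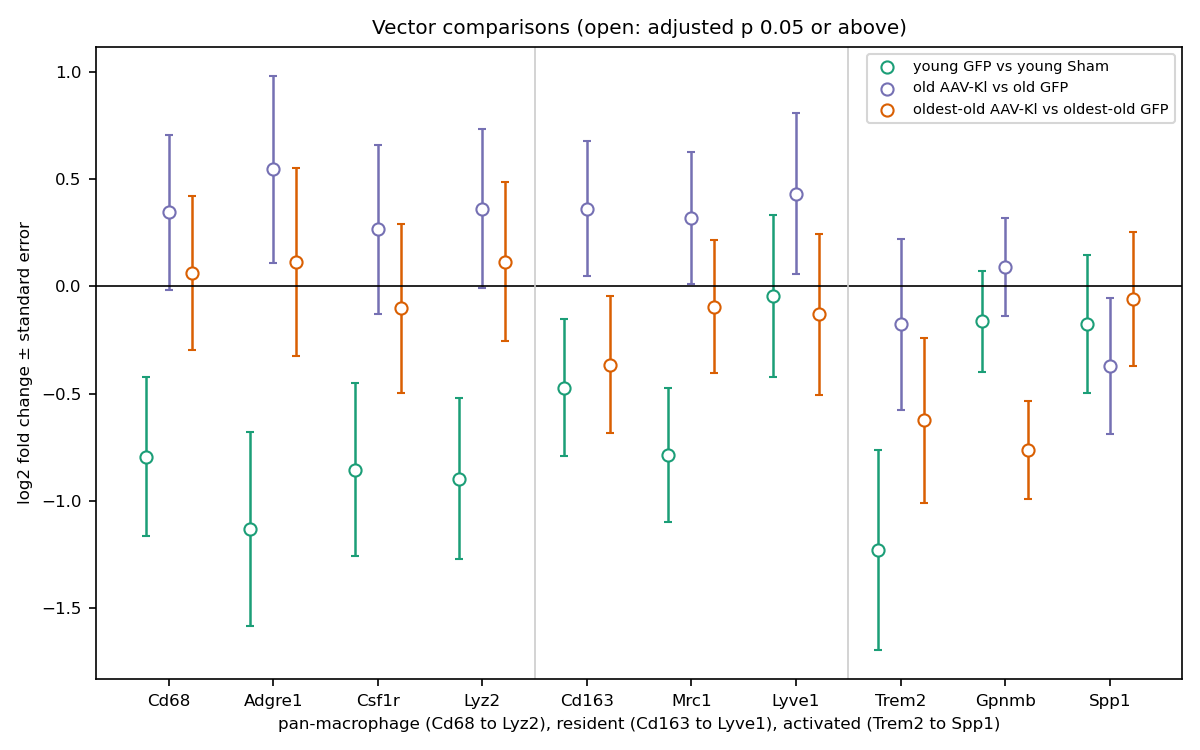
Log2 fold change with its standard error for the 10 members in young GFP against young Sham, old AAV-Kl against old GFP and oldest-old AAV-Kl against oldest-old GFP muscle; no point passed an adjusted p of 0.05. The points of the first comparison are all below 0, and Gpnmb in oldest-old mice, at -0.76, is the member farthest from 0 in its comparison.

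The oldest-old AAV-Kl group had the largest SD of CPM of the 6 groups for the 4 pan-macrophage members, Mrc1 and Spp1, and not for the other 4 members. Its mouse 2 had 12.6 CPM of Cd68 and 108 CPM of Lyz2, the highest of the 24 libraries for both, while mouse 3 had 0.843 CPM of Adgre1, 4.75 of Csf1r and 2.76 of Lyve1, the lowest for these. Gpnmb in the same 2 mice was 7.09 and 5.42 CPM. Without mouse 2 the log2 fold changes of Cd68, Adgre1 and Lyz2 in oldest-old AAV-Kl against GFP muscle went from 0.06, 0.11 and 0.11 to -0.68, -0.45 and -0.49, none of them called. Mouse 2 also had the highest sums of the neutrophil list (27.5 CPM) and of the Kupffer cell list (63.6 CPM), whose part in its macrophage transcripts was not tested.

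Levels per kilobase of exon set the members in order of abundance. Lyz2 led in every group, from 20.9 CPM per kilobase in young GFP to 45.0 in old AAV-Kl muscle, and Trem2 was last in every group, from 0.0194 in young GFP to 0.124 in oldest-old GFP muscle. Gpnmb rose from 0.534 in young GFP to 1.78 in oldest-old GFP muscle and Spp1 from 1.32 to 2.72, against 1.55 and 2.39 for Mrc1. By group mean, Gpnmb was ordered young GFP (3.48 ± 0.24 CPM, SD, n = 4), young Sham (3.89 ± 0.81), oldest-old AAV-Kl (6.86 ± 0.99), old GFP (7.04 ± 1.51), old AAV-Kl (7.48 ± 2.72) and oldest-old GFP (11.6 ± 3.86). In that order, the step from young Sham to oldest-old AAV-Kl was the only one between neighbors whose mice did not overlap.

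Across mice, the pan-macrophage and resident members rose and fell as a block. With group means removed, the 21 pairs among these 7 genes had Pearson's r of log2 CPM from 0.66 to 0.94 over the 24 libraries, with a median of 0.87. Cd68 and Lyz2 were the closest pair (0.94). The 21 pairs of an activated with another member had a median of 0.42 and the 3 pairs of activated members 0.27, from 0.21 for Gpnmb with Spp1 to 0.40 for Trem2 with Spp1. All 24 libraries share their scaling, and no test was made.

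Further macrophage genes were read from lists set up beside the members. Of 20 general macrophage genes, none was called in edgeR's test in any of the 3 age comparisons, with 2 at an unadjusted p under 0.05 at old and 7 at oldest-old age against young GFP muscle, all higher. Of all 17803 genes tested, 3399 at old and 5310 at oldest-old age had an unadjusted p under 0.05 in either direction. The median log2 fold change of the list was 0.70 at old and 0.85 at oldest-old age. C1qa, a complement subunit, had 0.85 ± 0.40 (SE, edgeR adjusted p = 0.156) and Tyrobp, the signaling partner of Trem2, 0.96 ± 0.47 (edgeR adjusted p = 0.174) at oldest-old age.

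Of 18 further genes of activated macrophages, 3 were called higher at old age and 5 at oldest-old age, and none lower. Mmp12, macrophage elastase, had a log2 fold change of 3.47 ± 0.87 (SE, edgeR adjusted p = 0.0111) at oldest-old age, with a median of 0.494 CPM and 1 mouse at 3.94 CPM. Atp6v0d2, a proton pump subunit, had 3.26 ± 0.80 (edgeR adjusted p = 0.00973), and Clec7a, the beta-glucan receptor dectin-1, 2.02 ± 0.46 (edgeR adjusted p = 0.00595). At old age Clec7a was called (1.79, edgeR adjusted p = 0.029) and Mmp12 and Atp6v0d2 were not (1.66 and 2.14, edgeR adjusted p = 0.317 and 0.154). Mitf, a factor of lysosomal genes that muscle also expresses, at 14.6 CPM in young GFP muscle, had 0.45 ± 0.09 at oldest-old and 0.37 ± 0.09 at old age (edgeR adjusted p = 0.00175 and 0.017). Cd63 was the fifth gene called. Lysosomal and lipid genes of the list that are expressed in many cells, such as Ctsd (0.05 ± 0.08) and Plin2 (0.15 ± 0.20), had values near 0 at oldest-old age, and the median of the list was 0.12 at old and 0.37 at oldest-old age.

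Of 18 further genes of resident macrophages, 3 were called higher at oldest-old age and 1 at old age. Their median log2 fold change was 0.79 at old and 0.60 at oldest-old age, above that of the further activated genes at both ages. At each age 7 were higher at an unadjusted p under 0.05, beside 4 and 5 of the activated genes. Over all 17803 genes tested, 3399 at old and 5310 at oldest-old age had such a p in either direction. Vsig4, a complement receptor, had a log2 fold change of 3.44 ± 0.67 (SE, edgeR adjusted p = 0.00217) and was scarce, from 0 to 0.117 CPM in young GFP and from 0.196 to 0.732 CPM in oldest-old GFP muscle. Clec10a, a galactose lectin, rose by 1.33 ± 0.39 and the chemokine gene Ccl24 by 1.09 ± 0.36 (edgeR adjusted p = 0.0275 and 0.0469). Maf, which encodes a factor that muscle fibers also express and had a mean of 394 CPM in young GFP muscle, fell at oldest-old age, with -0.54 ± 0.16 (edgeR adjusted p = 0.031). Vsig4 was called at old age too (2.58, edgeR adjusted p = 0.0367), and Clec10a and Ccl24 were not (1.04 and 1.16, edgeR adjusted p = 0.137 and 0.0726).

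Among 8 ligands and partners of the members, Csf1, a ligand of Csf1r, was the 1 gene called at oldest-old age (log2 fold change 0.55 ± 0.16 SE, edgeR adjusted p = 0.0272), with 0.39 ± 0.16 at old age (edgeR adjusted p = 0.189). Il34, the other ligand, had -0.08 ± 0.17 at oldest-old age. The osteopontin receptors Cd44 (0.27 ± 0.31) and Itgb3 (-0.08 ± 0.27) were not called. Of 7 monocyte genes tested, Chil3, a chitinase-like protein, was the 1 called, with 4.81 ± 0.88 at oldest-old age (edgeR adjusted p = 0.00143) and 2.66 ± 0.95 at old age (edgeR adjusted p = 0.118), from a mean of 0.0271 CPM in young GFP muscle.

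Markers of other cells differed with age in the same libraries, and their part in the members' changes was not tested. Of 10 neutrophil genes, 6 could be tested and 5 were called higher at oldest-old age, led by Ngp (log2 fold change 4.86), S100a8 (4.002), Retnlg (3.84) and S100a9 (3.63), with edgeR adjusted p of 0.0464, 0.00697, 0.0168 and 0.0122. The list summed to 0.604 to 1.36 CPM in young GFP, 2.52 to 6.05 in old GFP and 2.20 to 17.7 in oldest-old GFP muscle. At old age none of the 6 was called and 4 had an unadjusted p under 0.05. S100a8, Retnlg and S100a9 were among these 4 (2.82, 2.82 and 2.78), and Ngp (2.11) was not. All 6 erythroid genes were called higher at oldest-old age, led by Slc4a1 (5.21), Alas2 (2.67), Hbb-bt (2.60) and Hbb-bs (2.35). They summed to 63.1 to 101 CPM in young GFP muscle. In oldest-old GFP mice 1, 2, 3 and 4 they summed to 605, 116, 90.2 and 665 CPM. Mice 1 and 4 also had the highest neutrophil sums of that group (6.85 and 17.7 CPM) and its highest Trem2 and Gpnmb levels. Spp1 was highest in mouse 1 and lowest in mouse 4.

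Defining markers of bone and melanocytes, other known sources of Spp1 and Gpnmb, had few reads, and Acp5, which osteoclasts share with macrophages, had 22 to 908. Ibsp, a bone matrix gene, had no read in 14 of 24 libraries and at most 28, and Bglap had at most 3. Of 7 melanocyte genes 2 could be tested, and of 9 bone and osteoclast genes 3. None was called at either age against young GFP muscle, with 1 of each list lower at an unadjusted p under 0.05 at oldest-old age. Tyr had no read in 19 libraries and Oca2 in 22. The melanocyte list summed to 0.749 to 1.25 CPM in young GFP and 0.764 to 1.09 CPM in oldest-old GFP muscle, and the bone and osteoclast list to 1.69 to 8.65 and 1.48 to 3.36 CPM. The part of these cells in the values of Spp1 and Gpnmb was not tested. Prox1 was the 1 gene called of 7 of lymphatic endothelium (0.85 ± 0.22 SE, edgeR adjusted p = 0.0129).

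Skin, liver and fiber transcripts also varied. Keratinocyte genes summed to 125 and 392 CPM in young GFP mice 1 and 3 and to at most 6.30 CPM in old and oldest-old GFP mice, and 5 of 10 were called lower at oldest-old age (Krt14, Krt5, Lor and Flg led, with -7.95, -7.54, -6.44 and -5.51). Without those 2 young mice, Trem2 and Gpnmb were still called at oldest-old age and no member was called at old age, where their log2 fold changes were 2.23 and 1.06 (edgeR adjusted p = 0.102 and 0.12). Liver genes summed to 959 and 132 CPM in old GFP mice 1 and 4, and 8 of 10 were called higher at old age. Without those 2 mice Gpnmb was called at old age and Trem2 was not (2.16, edgeR adjusted p = 0.0542). Of the muscle genes, Myh1 was higher (0.64) and Casq1, Pvalb and Myh4 were lower (-0.73, -0.65 and -0.33) at oldest-old age, and Col1a1 of fibroblasts was lower (-1.77). None of 7 dendritic cell, 6 adipocyte, 7 B cell and 4 Kupffer cell genes tested was called in either comparison with young GFP muscle, where 4 B cell genes had an unadjusted p under 0.05 at old age and 1 at oldest-old age.

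The genes most like the activated members over the 24 libraries were Apod, Stra6, Cdh19, Ric3 and Atp9a, with Pearson's r of 0.93, 0.92, 0.92, 0.90 and 0.89 to the mean log2 CPM of Trem2, Gpnmb and Spp1, among 12689 genes with a mean log2 CPM above 0. Apod was called at old (log2 fold change 1.30 ± 0.28 SE, edgeR adjusted p = 0.00961) and at oldest-old age (2.11 ± 0.28, edgeR adjusted p = 0.000106). Stra6, Cdh19, Ric3 and Atp9a were called higher at both ages as well. Among the genes most like the resident members were F13a1, Fcgr3, Mmp9 and Pf4, with r of 0.95, 0.91, 0.91 and 0.90. F13a1, a coagulation factor subunit found in macrophages, was not called at old (0.76 ± 0.36, edgeR adjusted p = 0.256) or oldest-old age (0.77 ± 0.36, edgeR adjusted p = 0.157). These correlations carry the group differences and the shared scaling of the libraries and were given no test. Apod, Stra6, Cdh19, Ric3 and Atp9a were on none of the gene lists set up here, macrophage lists included, whereas F13a1 and Pf4 were on the list of further resident genes. Which cells the transcripts of Apod, Stra6, Cdh19, Ric3 and Atp9a came from was not tested. No list of nerve or Schwann cell genes was set up.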

How the data were processed

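Per the labels and the study's methods, the authors aligned reads to GRCm38/mm10 with STAR and deposited, for each library, raw counts per gene without normalization. FastQC, STAR and DESeq2 are named in the submitters' processing notes, and the annotation release is not given in the sources used here. Of 55385 gene identifiers, 54487 matched GENCODE M21 with the same version, from which symbols, exons and overlaps were taken. The first strand column held 49.8% to 50.4% of reads, and counts without regard to strand were used, so that overlapping genes on opposite strands share reads. Between 74.7% and 77.0% of reads were counted on genes.

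All 24 libraries entered 1 fit in edgeR 4.0.16 (TMM scaling, filterByExpr with a minimum count of 10, glmQLFit and glmQLFTest, Benjamini-Hochberg adjustment over 17803 genes). Log2 CPM used a prior count of 2. Scripts were tested on simulated data. No pair of libraries within a group was a duplicate, and pairs across groups were not checked for this. On average, libraries with the same replicate number did not deviate in the same direction, and the numbers were not treated as pairs. A shared cohort or batch was not tested. With 4 mice per group, p-values of this fit set each difference against a spread between mice that was estimated over all 24 libraries.

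The members, their classes and the further gene lists were chosen with earlier results of these data known. From each further list the text names up to 4 genes with the largest absolute log2 fold change among those called in oldest-old against young GFP muscle. The 5 genes with the highest r to a class mean were named as most like it. Results for some genes that these rules select are not reported here, and counts called lower in their list are left out with them. Other list genes (C1qa, Tyrobp, Ctsd, Plin2, Il34, Cd44, Itgb3, Cd63, Maf and those of bone and melanocytes) were named after their values were seen. Alternatives were DESeq2 size factors, the DESeq2 test, no filter, 1 strand, fewer groups, leaving out libraries and the replicate number as a block.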

Additional observations from a re-analysis of the deposited data

Results flagged for a closer look

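Of 66 groups of 4 mice examined, 7 held a mouse that stood apart from the other 3 of its group. The rule flags about 1 in 20 groups by chance. In young Sham muscle, Cd68 measured 6.25 CPM in mouse 2 against 3.74 to 4.02 in the others. In oldest-old AAV-Kl muscle, Cd68 measured 12.6 CPM in mouse 2 against 2.42 to 3.94. Adgre1 measured 1.78 CPM in oldest-old GFP mouse 4, below the 2.99 to 3.20 of the others. Young GFP mouse 2 stood high in Csf1r (14.1 CPM against 7.41 to 8.48), Mrc1 (13.9 CPM against 7.95 to 8.87) and Lyve1 (10.6 CPM against 5.98 to 6.71). Csf1r measured 32.2 CPM in old AAV-Kl mouse 2 against 16.2 to 17.9.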

How the results depend on the processing

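No sign change under any alternative was of a called value, and of the counts, medians and class differences under alternatives 291 stayed near the value reported and 19 did not. Members called at old against young GFP numbered 0 without young GFP mice 1 and 3 and without the 6 libraries with B cell transcripts, 1 without old GFP mice 1 and 4 and with young Sham as the young group, and 1 to 3 when single mice were left out (1 without old GFP mouse 2 or young GFP mouse 4, 3 without young GFP mouse 2). With young Sham as the young group the median of the members was 0.12 at old and 0.14 at oldest-old age. At old age Cd68, Adgre1, Lyz2 and Mrc1 were then -0.041, -0.15, -0.15 and -0.20, and at oldest-old age Adgre1, Csf1r, Lyz2 and Mrc1 were -0.30, -0.033, -0.060 and -0.16. Without the B cell libraries the median in young GFP against Sham was -0.24, with Cd163, Lyve1 and Spp1 at 0.055, 0.90 and 0.20, and Cd68, Adgre1 and Lyz2 in oldest-old AAV-Kl against GFP were -0.68, -0.45 and -0.49. Without old GFP mice 1 and 4, oldest-old against old GFP gave -0.10 for Lyz2, -0.073 for Mrc1, -0.11 for Lyve1 and 0.13 for Spp1, and old AAV-Kl against GFP gave -0.10 for Gpnmb. Without young GFP mice 1 and 3, Lyve1 against Sham was 0.22. The cause of these changes was not tested.

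With the replicate number as a block, 4 members were called at oldest-old against young GFP (Cd68, Csf1r, Trem2 and Gpnmb, with Spp1 at an edgeR adjusted p of 0.0502) and 2 at old age. Csf1r in oldest-old against old GFP was 0.031 in the block fit, and Cd68, Adgre1 and Lyz2 in oldest-old AAV-Kl against GFP were -0.15, -0.020 and -0.074. Same-numbered libraries had correlations of their deviations from -0.16 to 0.13 in oldest-old and young GFP muscle. In young GFP and young Sham muscle these ran from -0.53 to 0.20, and in oldest-old AAV-Kl and oldest-old GFP muscle from -0.23 to -0.12. What the replicate number stands for is not given in the sources used here.

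The activated minus resident difference with a median in place of the mean was -2.21, -1.91, -1.53, -2.06, -1.39 and -1.11 in young Sham, young GFP, old GFP, old AAV-Kl, oldest-old GFP and oldest-old AAV-Kl muscle. Without Lyve1 it was -3.35 in young Sham, and without Spp1 -3.48, -3.63 and -2.71 in young Sham, young GFP and old GFP.

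Leaving out single mice, oldest-old against old GFP ranged from -0.13 to 0.36 for Lyz2, -0.084 to 0.27 for Mrc1, -0.13 to 0.25 for Lyve1, -0.24 to 0.13 for Spp1, -0.34 to 0.19 for Adgre1, -0.23 to 0.20 for Csf1r and -0.31 to 0.033 for Cd163. Old AAV-Kl against GFP ranged from -0.19 to 0.24 for Gpnmb, -0.018 to 0.54 for Csf1r and -0.038 to 0.59 for Cd163. Oldest-old AAV-Kl against GFP ranged from -0.35 to 0.14 for Spp1, -0.68 to 0.32 for Cd68, -0.45 to 0.12 for Mrc1, -0.45 to 0.42 for Adgre1, -0.49 to 0.37 for Lyz2, -0.63 to 0.20 for Csf1r and -0.41 to 0.16 for Lyve1. Young GFP against Sham ranged from -0.25 to 0.093 for Lyve1 and -0.39 to 0.14 for Spp1, and the difference between the Klotho responses from -0.85 to 0.023 for Lyz2. Trem2 rested on 17 reads in all in young GFP muscle. Over all genes, 837 were called at old and 2649 at oldest-old age against young GFP muscle, with 143 (without young GFP mice 1 and 3) to 1275 (compared groups alone) and 874 (without young GFP mice 1 and 3) to 3077 (DESeq2) under the alternatives. DESeq2 called 287 genes in young GFP against Sham muscle and edgeR's fit of those groups alone 174, beside 84.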
